A study of Mus musculus with 55 samples.

Results

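CTCF occupancy was mapped by antibody-based ChIP-seq in mouse liver, and the 2 deposited peak lists, 1 for untreated WT livers and 1 for TCPOBOP-treated Setd8-LKO livers, were compared peak by peak. All 26743 peaks of both lists were taken, 5838 from WT and 20905 from Setd8-LKO, out of 173819 peaks and islands in the 12 lists of the series. The WT list comes from 4 libraries and the Setd8-LKO list from 2 libraries, beside 2 and 2 inputs (chromatin sequenced without an antibody). Setd8-LKO stands for Setd8 lox/lox AlbCre mice, in which an exon of Setd8 is removed by a Cre recombinase driven by the albumin promoter and hence in hepatocytes, while the other liver cells keep the gene. All mice were male and 45 to 50 days old, and the Setd8-LKO mice had received TCPOBOP, an agonist of the nuclear receptor CAR that makes hepatocytes proliferate, at 3 mg/kg 24 h before the livers were taken. WT mice are called untreated in the labels, while the methods name a corn oil vehicle. Genotype and treatment therefore changed together and cannot be told apart, and with 1 list per group there is no replicate error for any value of a peak. The 95% intervals given with shares and medians cover counting error only.

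CTCF is a zinc finger protein that binds a long GC-rich consensus sequence at insulators, domain borders and many promoters. Cohesin, the ring complex that contains Smc3, extrudes chromatin loops and is held back at CTCF sites, so that both proteins are usually found together. Setd8, encoded by Kmt5a, places the first methyl group on lysine 20 of histone H4, the substrate of the enzymes that make H4K20me3. A peak is a region with more reads than in input, and its summit is the base with the most reads. Its fold enrichment is the read density at the summit over the background that MACS2 estimated, as MACS2 wrote it. A WT peak that shared at least 1 bp with a Setd8-LKO peak was called kept and the others lost, and a Setd8-LKO peak without a WT partner was called gained. By this definition 41.9% of the WT list was lost and 83.9% of the Setd8-LKO list was gained.

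The bases under a few of the strongest peaks are shown first, because the classes differed in base composition. They were read from GRCm38, the assembly that mm10 names, 5′ to 3′ on the strand of the consensus, and the capitals mark the best match to the CTCF core consensus with no or 1 mismatch. Of the 5 strongest lost peaks, the one near the lincRNA gene Gm11195 (chr11:78453825-78453884, plus strand) had 37.8% GC within 100 bp of its summit, the one near Gtf3c5 (chr2:28585346-28585405, minus strand) had 49.8% and the one near the oligodendrocyte gene Opalin (chr19:41071671-41071730, plus strand) had 50.2%.
Gm11195, lost: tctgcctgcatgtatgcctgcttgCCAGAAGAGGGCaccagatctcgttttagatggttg
Gtf3c5, lost: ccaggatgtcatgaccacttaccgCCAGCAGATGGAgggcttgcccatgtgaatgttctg
Opalin, lost: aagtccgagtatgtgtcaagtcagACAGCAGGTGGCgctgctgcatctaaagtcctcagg
Among kept peaks, the strongest of the Setd8-LKO list lay at the promoter of Acbd4 (chr11:103102806-103102835, plus strand), with 67.7% GC, and one of the strongest of the WT list lay at the promoter of the myelin regulator Myrf (chr19:10240777-10240836, minus strand), with 77.6% GC.
Acbd4, kept: cgtgggtttCCACCAGGGGGCgcgaggact
Myrf, kept: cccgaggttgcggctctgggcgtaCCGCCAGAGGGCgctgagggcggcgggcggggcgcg
Of the gained peaks with the consensus, the strongest lay between genes near Spry2 (chr14:105899007-105899066, plus strand) and the next outside promoters near Gnai2 (chr9:107644742-107644801, minus strand).
Spry2, gained: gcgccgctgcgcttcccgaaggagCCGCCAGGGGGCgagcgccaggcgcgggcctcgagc
Gnai2, gained: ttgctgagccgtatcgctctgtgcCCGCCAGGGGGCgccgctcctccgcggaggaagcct
Most gained peaks had no such match within 100 bp of the summit. For the 2 gained peaks shown next, the best match had 2 mismatches and is not marked. The summits of the strongest gained peak, at the promoter of Dagla (chr19:10305026-10305086, plus strand), and of a gained peak at the promoter of Arid2 (chr15:96286797-96286857, plus strand) are shown with CG dinucleotides in capitals, 6 in the first and 10 in the second.
Dagla, gained: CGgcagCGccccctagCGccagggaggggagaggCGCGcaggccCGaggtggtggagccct
Arid2, gained: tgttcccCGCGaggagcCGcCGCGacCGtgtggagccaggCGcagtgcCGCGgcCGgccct

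Kept, lost and gained peaks differed in strength in the Setd8-LKO list but hardly in the WT list. In the WT list, the median fold enrichment was 12.7 (95% interval 12.5 to 12.8) in kept and 12.4 (12.2 to 12.5) in lost peaks, and the strongest lost peak reached 26.4 against 31.3 among kept peaks. From the weakest to the strongest quartile of WT peaks by fold enrichment, the share kept was 60.5%, 52.5%, 53.3% and 66.1%, so that strength in WT separated kept from lost peaks only weakly. In the Setd8-LKO list the kept peaks had a median of 39.6 (38.0 to 41.3) and gained peaks 12.1 (12.1 to 12.4). The median of gained peaks was thus near that of the WT list, while their upper tail reached 117, above every WT peak. When the Setd8-LKO list was cut to its best-scoring peaks, as many as in WT, the median of gained peaks was 29.7. Lengths were ordered differently, with medians of 202 bp in lost, 227 bp in kept WT, 303 bp in gained and 402 bp in kept Setd8-LKO peaks. The shortest peaks measured 173 bp in both classes of the WT list and 194 bp in both of the Setd8-LKO list, so the lists differed in their lower limit.

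**Figure D1:**
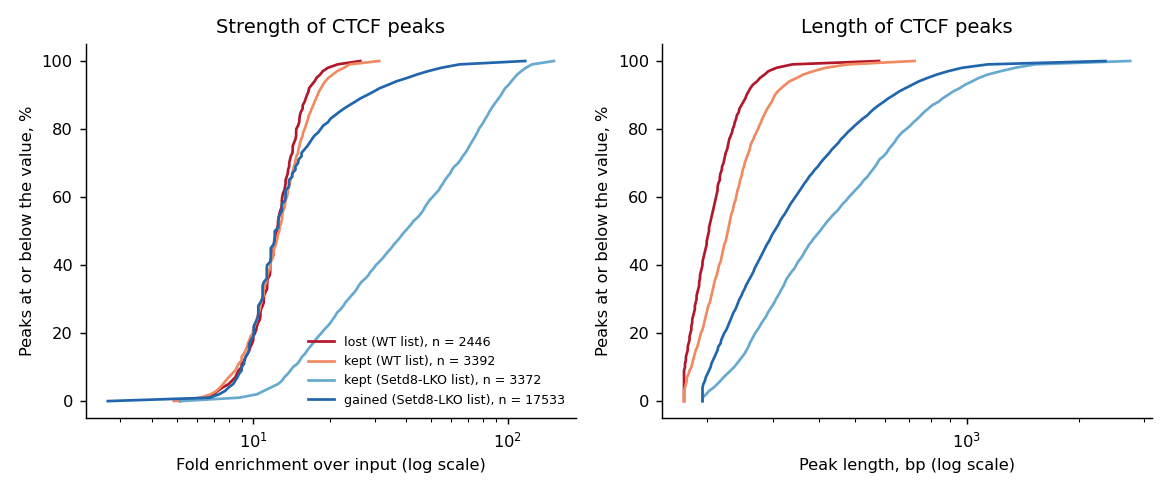
Percentiles of the fold enrichment (left, log axis, labelled as over input) and of the length in bp (right, log axis) of CTCF peaks, with 1 line per class. The lost, kept WT and gained peaks share medians of fold enrichment between 12.1 and 12.7, whereas the kept peaks of the Setd8-LKO list lie to the right with a median of 39.6.

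The 3392 kept WT peaks were paired with the strongest Setd8-LKO peak that they met. The fold enrichment was higher in the Setd8-LKO list in 3152 pairs (92.9%), with a median log2 ratio of 1.68 (95% interval 1.62 to 1.74) and quartiles of 0.78 and 2.46. At promoters, defined here as within 1000 bp of a GENCODE transcript start, the median log2 ratio was 2.28 in 1398 pairs, and elsewhere it was 1.20 in 1993 pairs. The summits stayed in place, with a median distance of 24 bp between lists and 80.9% of pairs within 50 bp. In the 2060 pairs with the consensus near both summits, the consensus lay at a median of 17.5 bp from the WT summit and 19.5 bp from the Setd8-LKO summit. The fold enrichment in one list said little of that in the other, with Spearman's rho of 0.11 and Pearson's r of 0.16 over 3391 pairs, which are sites within the same 2 lists and not independent samples.

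Named sites show the same spread. The strongest kept peak of the Setd8-LKO list, at the promoter of Acbd4, had a fold enrichment of 152 against 23.7 in WT, and the peak at the promoter of Sh3glb1, which encodes endophilin B1, had 152 against 30.2. Exosc8, a subunit of the RNA exosome, followed with 152 against 26.4, Adprhl2, an ADP-ribose hydrolase, with 150 against 14.6 and the kinase gene Pkn3 with 149 against 21.2. All 5 lay at promoters and met Smc3 peaks of both lists. The strongest peak of the WT list, at the promoter of the splicing factor gene Rbm17, rose from 31.3 in the WT list to 92.5 in the Setd8-LKO list. The third strongest WT peak, at the pseudogene Gm13996, had 29.9 in WT and 16.7 in Setd8-LKO, and 51.7% GC.

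Base composition separated the WT peaks that were kept from those that were lost. The median GC content within 100 bp of the summit was 50.2% in lost, 58.2% in kept WT, 59.2% in kept Setd8-LKO and 65.7% in gained peaks, and the ratio of observed to expected CpG was 0.23, 0.48, 0.50 and 0.69 in the same order. Of 1090 WT peaks with 45 to 50% GC, 12.4% were kept (95% interval 10.5 to 14.5). The share was 40.2% (37.9 to 42.5) of 1798 peaks at 50 to 55% GC and 87.9% (86.1 to 89.6) of 1359 peaks at 55 to 60%. At 60 to 65% GC, 608 of 610 WT peaks were kept, and above 65% all 342 peaks up to 70% and all 369 peaks beyond were kept.

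The gradient was present among WT peaks outside promoters that carried the CTCF consensus. Of these, 10.7% of 740 peaks at 45 to 50% GC were kept, 36.1% of 1148 at 50 to 55%, 87.1% of 746 at 55 to 60% and 191 of 192 at 60 to 65%. The strength of kept peaks followed GC content in one list and not in the other. Over the kept pairs, the median fold enrichment in WT was 13.3 at 45 to 50% GC and 12.7 at 70% or more, whereas in the Setd8-LKO list it was 16.3 and 85.4. Across 3391 pairs, GC content had a Pearson's r of 0.69 and a Spearman's rho of 0.75 with the log2 ratio of fold enrichment, 0.72 and 0.77 with the fold enrichment in Setd8-LKO and 0.01 and -0.00 with that in WT. These are descriptions across sites of the same libraries. The base composition of the reads is not in the peak lists, and its part in the difference between the lists was not tested.

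**Figure D2:**
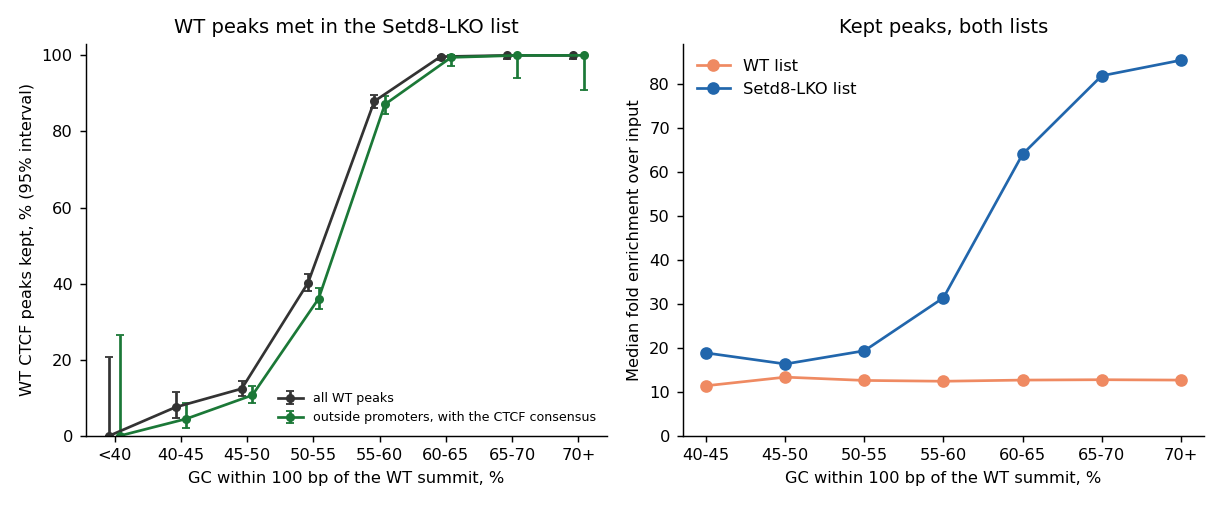
Left, share of WT CTCF peaks kept in the Setd8-LKO list (with 95% Clopper-Pearson intervals) by GC content within 100 bp of the WT summit, for all peaks and for peaks outside promoters with the CTCF consensus. Right, median fold enrichment of the kept pairs in both lists; it runs from 16.3 to 85.4 between 45 to 50% and 70% GC in Setd8-LKO and stays between 12.4 and 13.3 above 45% GC in WT.

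The Smc3 lists, made with another antibody on the same groups, had a gradient in the same direction, but they are not an independent readout. The series holds 2 inputs per group for all ChIP targets, and 83.6% of kept WT CTCF peaks met a WT Smc3 peak. Of WT Smc3 peaks, 8.58% of 2202 at 45 to 50% GC, 15.2% of 3716 at 50 to 55%, 42.8% of 2755 at 55 to 60% and 88.1% of 1297 at 60 to 65% met a Setd8-LKO Smc3 peak. For H3K27ac, an acetyl mark of active promoters and enhancers, the share rose from 59.6% of 4071 WT peaks at 45 to 50% GC to 84.1% of 2633 at 60 to 65% and 99.7% of 6806 above 70%. For ATAC, a measure of open chromatin, it went from 71.3% of 5750 to 80.5% of 3058 over the same range and was 64.5% of 941 above 70%. Each of these shares rests on 1 list per group.

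Most CTCF peaks in WT held the CTCF consensus, and most gained peaks did not. A match with at most 1 mismatch within 100 bp of the summit was found in 75.9% of lost (95% interval 74.1 to 77.6), 64.1% of kept WT (62.4 to 65.7), 61.6% of kept Setd8-LKO (59.9 to 63.2) and 14.0% of gained peaks (13.4 to 14.5). Windows of the same length moved by 2000 bp to either side held it in 2.66 to 3.08% and windows at the start of all 21938 protein coding genes in 3.34%. Gained peaks thus carried the consensus more often than both backgrounds, and lost peaks carried it most often. Neither background was matched in GC content, whose median was 65.7% in gained peaks and 58.7% at protein coding gene starts. The part of base composition in these shares was not tested. An exact match was found in 29.6% of lost, 23.6% of kept WT and 3.68% of gained peaks.

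Within the gained list, strength and consensus went together. In the strongest quartile of gained peaks (fold enrichment from 16.3), 31.2% held the consensus and 47.6% met a WT Smc3 peak, against 4.94% and 7.61% in the weakest quartile. The 2443 gained peaks with the consensus had a median fold enrichment of 17.7, against 12 in the 15061 without it, and 49.0% of them met a WT Smc3 peak against 14.8%. A share of gained CTCF peaks thus lay where the WT Smc3 list had a peak and the WT CTCF list had none. In kept peaks of the Setd8-LKO list the order was the opposite, with the consensus in 70.2% of the weakest and 51.7% of the strongest quartile, and promoters in 16.6% and 69.5%. The median GC content of these quartiles was 54.7% and 67.7%. The orientation of the consensus was even, on the plus strand in 49.4% of WT and 49.9% of Setd8-LKO matches. Neighbouring matches faced each other in 25.7% of 4008 WT pairs and 24.5% of 4498 Setd8-LKO pairs.

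Short motifs of promoter factors were searched on both strands within 100 bp of the summits, any overlap with other motifs included. GGGCGG, the GC box bound by Sp1, was in 40.3% of gained peaks, 28.1% of kept Setd8-LKO, 24.7% of kept WT and 4.62% of lost peaks, against 40.0% of windows at all protein coding gene starts and 4.98% of the moved windows of gained peaks. CCGGAAG, an ETS site, was in 5.06% of gained and 1.23% of lost peaks and in 9.60% of gene starts. The palindromic NRF1 site was in 2.87% of gained, 0.082% of lost and 5.28% of gene starts. AAGATGGCG, a YY1 site, was in 2.02% of gained, 0.61% of lost and 1.81% of gene starts. CCAAT, the NFY box, was in 13.8% of gained and 24.1% of lost peaks, and in 28.2% of gene starts. TGACGTCA, the CRE, was in 0.51% of gained and 0.20% of lost peaks and CACGTG, the E-box, in 5.34% and 2.78%. Sites of liver or inducible factors were rare in gained peaks, with TGTTTAC (forkhead) in 0.86%, CAAAGTCCA (HNF4A) in 0.080% and TGANTCA (AP-1) in 2.08%, below their moved windows at 2.61%, 0.28% and 5.30%. These words hold more A and T than G and C, and the moved windows were not matched in GC content. Gained peaks had a median of 65.7% GC, and the part of base composition in these shares was not tested. A match of these letters is a description and no evidence of binding.

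Gained peaks lay mostly at promoters and lost peaks mostly away from them. By their summits, 59.4% of gained (95% interval 58.7 to 60.1), 40.9% of kept Setd8-LKO (39.2 to 42.6) and 10.2% of lost peaks (9.05 to 11.5) were at promoters. Lost peaks were intronic in 40.5% and intergenic in 44.0%, against 12.6% and 14.3% of gained peaks. The position at the promoter differed too. Kept summits of the WT list lay at a median of 58 bp before the transcript start (signed median -58, with 31.4% downstream), and gained summits at a median of 62 bp after it, with 64.3% downstream. The 10399 gained promoter peaks had a median GC content of 68.7%, and only 9.09% held the consensus, against 49.8% of kept Setd8-LKO promoter peaks. Repeat sequence, as masked in the assembly, was at the summit of 10.2% of gained, 11.5% of lost, 3.48% of kept WT and 4.03% of kept Setd8-LKO peaks.

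**Figure D3:**
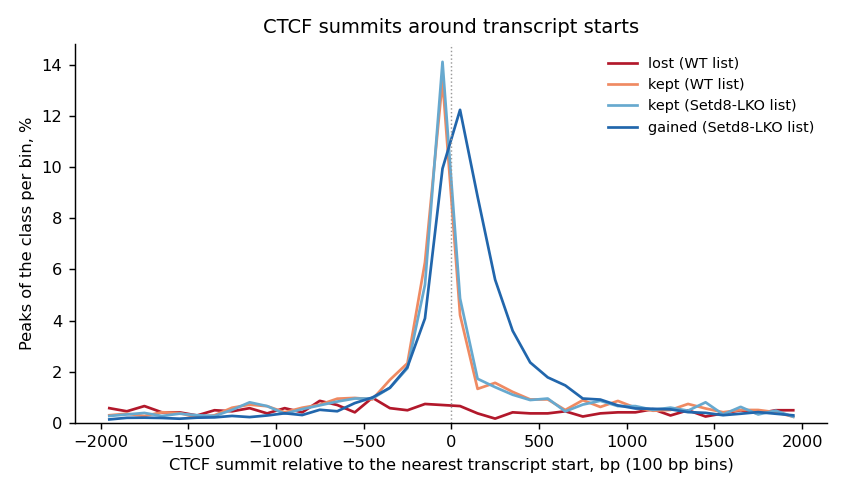
Share of the peaks of each class in 100 bp bins of the distance from the summit to the nearest transcript start, with negative values upstream. Kept peaks of both lists are centred before the start, gained peaks after it with a tail downstream, and lost peaks show no concentration.

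Lost CTCF peaks met Smc3 mostly in WT and gained ones mostly in Setd8-LKO. For CTCF and Smc3 alike, the series holds 2 inputs per group. Of lost CTCF peaks, 63.2% (61.3 to 65.2) met an Smc3 peak in WT and 3.97% (3.23 to 4.82) in Setd8-LKO. Of gained peaks, 19.6% (19 to 20.2) met one in WT and 72.1% (71.4 to 72.8) in Setd8-LKO, the latter being 31.3% when each peak had to cover 50% of the other. Kept WT peaks had 83.6% in WT and 64.8% in Setd8-LKO. Outside promoters, 83.6% of kept WT peaks met an Smc3 peak in WT and 49.0% in the Setd8-LKO list, whereas at promoters the shares were 83.6% and 87.2%. The strongest lost peak, near Gm11195, and that near Opalin met Smc3 in WT only, while the lost peaks near Gm15270 and in Gm21969 met Smc3 in both lists.

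H3K27ac was listed at most gained promoters already in WT. Of gained promoter peaks, 71.3% met a WT and 79.9% a Setd8-LKO H3K27ac peak, and outside promoters the shares were 12.9% and 20.7%. The share of all promoters with an H3K27ac peak is not given here, so these values cannot be read as particular to gained promoters. Lost peaks met H3K27ac in 1.84% in WT and 1.88% in Setd8-LKO. ATAC peaks met 23.0% of gained CTCF peaks in WT and 17.0% in Setd8-LKO, 37.1% and 28.3% of kept WT peaks, and 13.8% and 10.5% of lost peaks. Gained, kept and lost peaks each had the lower ATAC share in the Setd8-LKO list, which held 23376 ATAC peaks on the chromosomes against 27298 in WT.

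CTCF peaks of every class were scarce in the wide islands of Lamin A/C, the intermediate filament of the nuclear envelope, and of H4K20me3, a mark of closed chromatin. Lamin A/C islands covered 31.2% of the genome in WT and 27.8% in Setd8-LKO, and H4K20me3 islands 26.3% and 23.2%. Gained peaks lay in Setd8-LKO Lamin A/C islands in 7.09% and in WT ones in 8.64%, lost peaks in 3.43% and 4.66%, and kept WT peaks in 1.74% and 2.54%. H4K20me3 islands of Setd8-LKO held 6.64% of gained, 2.45% of lost and 1.30% of kept WT peaks. The gained peaks in such islands were mostly away from promoters, where 11.6% lay in Setd8-LKO Lamin A/C islands against 3.98% at promoters.

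**Figure D4:**
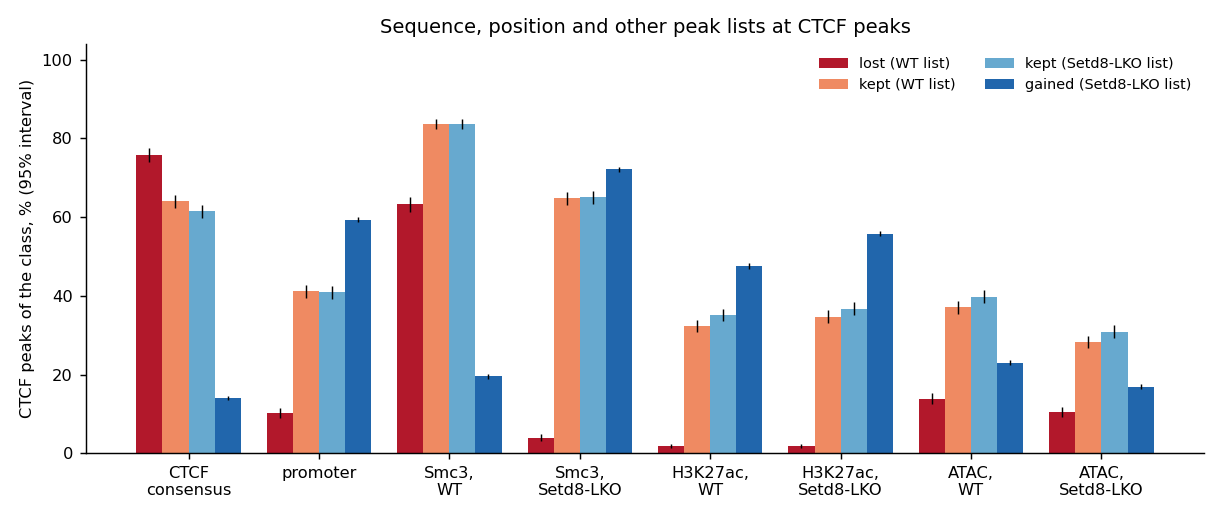
Share of CTCF peaks of each class (bars, with 95% Clopper-Pearson intervals) that held the CTCF consensus, lay at a promoter, or met a peak of Smc3, H3K27ac or ATAC in the WT or Setd8-LKO list. The consensus falls from 75.9% of lost to 14.0% of gained peaks, and Smc3 of Setd8-LKO rises from 3.97% to 72.1%.

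Across chromosomes, both lists were dense where genes are dense and GC content is high. Autosomes held 1.30 to 4.16 WT peaks and 5.22 to 14.3 Setd8-LKO peaks per Mb. Both densities were highest on chromosome 11 and lowest on chromosome 3. Over the 19 autosomes they had a Pearson's r of 0.98 and a Spearman's rho of 0.93 with each other. With the density of protein coding genes these were 0.90 and 0.92 (WT) and 0.85 and 0.84 (Setd8-LKO). With the GC content of the chromosome they were 0.93 and 0.87 (WT) and 0.94 and 0.91 (Setd8-LKO). The gained share was nearly even over the autosomes, from 81.9% on chromosome 11 (95% interval 80.0 to 83.6) to 86.8% on chromosome 13 (84.1 to 89.3). The X chromosome, of which a male has 1 copy and which has 39.3% GC, stood apart with 21 WT and 150 Setd8-LKO peaks. Its gained share of 92.0% (86.4 to 95.8) was the highest of any chromosome with more than 1 peak. The density of peaks on X was 0.052 times that of the autosomes in WT and 0.10 times in Setd8-LKO, against 0.098 and 0.29 for Smc3, 0.24 and 0.23 for H3K27ac and 0.21 and 0.25 for ATAC. On Y, 0 WT peaks and 1 Setd8-LKO peak were listed, and unplaced scaffolds held 1 and 30.

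Peaks stood closer together in the larger list. Neighbouring summits were a median of 108698 bp apart in WT and 30894 bp apart in Setd8-LKO, and 105152 bp apart when only as many Setd8-LKO peaks as WT peaks were taken from the top by -log10 p. Gained summits, which by definition lie in peaks that share no base with a WT peak, were at a median of 58946 bp from the nearest WT summit, with 2.11% within 1000 bp and 38.4% beyond 100 kb. Lost summits lay at a median of 20349 bp from the nearest Setd8-LKO summit, with 3.92% within 1000 bp. The window of 1 Mb with the most gained peaks was 80000001 to 81000000 on chromosome 10, with 106 gained among 125 Setd8-LKO peaks, 21 WT peaks of which 2 were lost, and 55 protein coding genes such as Polr2e, Gpx4 and Stk11. The most lost peaks in 1 Mb, 11 of 26 WT peaks, were at 55000001 to 56000000 on chromosome 14. Both windows held many peaks, and their gained and lost shares were near the 83.9% and 41.9% of all peaks.

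Among fixed loci, taken with 10 kb on each side of the genes, the Hox clusters changed most in number, and they are also the longest of these loci. Hoxa held 2 WT peaks and 16 Setd8-LKO peaks. Of the latter 14 were gained, a share near the 83.9% of the whole Setd8-LKO list. At the promoter of Hoxa7 the fold enrichment was 9.17 in WT and 104.6 in Setd8-LKO. The strongest gained peak of the cluster had 58.6 and lay at the promoter of Hoxa5. Hoxd held 1 WT peak, which was lost, and 11 gained peaks, the strongest at 48.1. The imprinted H19 and Igf2 region held 0 WT peaks and 4 gained ones, the strongest at 24.3 in an intron and the others at promoters with 7.95 to 12.1. At Kmt5a 3 peaks were gained (11.7, 13.4 and 17.2) and at Myc 3 (28.9, 41.4 and 46.5). The promoter of Ctcf itself had a peak of 13.3 in WT and 93.3 in Setd8-LKO, and that of Smc3 14.5 and 24.3.

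Other fixed loci had no or 1 peak. Alb, and Xist on the X chromosome, had none in either list, and Firre, also on X, had 1 gained peak of 15.1. Cyp2b10, a classic CAR target, had 1 gained peak of 15.3 within an intron. Afp, the fetal albumin, had 1 WT peak of 10.3, 637 bp before the start (signed distance -637), which was lost. Igf1, the liver-made growth factor, had 1 kept intronic peak with 13.8 in WT and 10.7 in Setd8-LKO.

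The longest gained peaks measured 1887 to 2363 bp. They lay at the promoters of Exoc8 (2363 bp, fold enrichment 48.3), Tsc22d2 (2301 bp, 52.0) and Med12l (1968 bp, 21), over an exon near Fzd7 (2295 bp, 34.0) and in an intron of Cdh22 (1887 bp, 43.3). Of the strongest gained peaks, that of Dagla, a diacylglycerol lipase, had 117, that between genes near the serotonin transporter gene Slc6a4 had 107, that of the antisense gene Rab10os 106, that near Spry2 105 and that of Prcp, a carboxypeptidase, 100.4. All 5 met Smc3 peaks in both the WT and the Setd8-LKO list.

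At the level of genes, 1447 of 21938 protein coding genes (6.60%) had a WT summit at a promoter and 9322 (42.5%) had a Setd8-LKO summit. Both lists had one at 1377 genes, only the Setd8-LKO list at 7945 (36.2%), and only the WT list at 70. The gene groups below were described beside these shares, without a test of the groups. The lists lay on both sides of the share of all genes in Setd8-LKO.

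Genes of CTCF and cohesin had a Setd8-LKO promoter peak in 17 of 20 and a WT one in 6. Stag2, a cohesin subunit on X, had a gained peak of 81.2, Maz, a zinc finger partner of CTCF, 37.5 and the loader Nipbl 21.3, while Pds5b had 14.0 in WT and 94.2 in Setd8-LKO. Of 20 genes of the nuclear lamina and envelope, 16 had a Setd8-LKO peak and 1 a WT peak. The gained ones included Lmnb1 (37.7), Banf1 (29.7), Tmpo (29.2) and Lmna (21.3), and the nucleoporin gene Tpr had 7.67 in WT and 70.2 in Setd8-LKO. Of 28 imprinted genes, 0 had a WT and 21 a Setd8-LKO promoter peak, the strongest at Grb10 (60.3) and at the shared start region of Peg10 and Sgce (55.2). Autophagy genes had one in 19 of 25, with Prkaa1 (61.1), Atg12 (40.4) and Ulk2 (29.0) gained. Liver transcription factors had one in 15 of 20, with Foxa3 (82.9), Tbx3 (64.9) and Xbp1 (40.2) gained and Cebpa at 14.0 in WT and 92.1 in Setd8-LKO.

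Of 10 genes of methylation at H4K20 or at lysine 9 of histone H3, 6 had a Setd8-LKO peak. Those of Kmt5a (17.2) and Kmt5c (16.3) were gained, and Kmt5b had 15.0 in WT and 74.5 in Setd8-LKO. DNA replication genes had a Setd8-LKO peak in 19 of 37. Pold1, the catalytic subunit of a replicative polymerase, gained a peak of 54.4, and Mcm5, a helicase subunit, was the only one to lose its WT peak (13.9). Genes of mitosis had one in 9 of 30, with Ccna2 (45.2), Ccnb1 (25.1) and Ube2c (25.1) gained, and genes of the DNA damage response in 15 of 30, with Gadd45a (34.7), Chek2 (33.1) and Trp53bp1 (16.3) gained. Hox genes had one in 21 of 39, ribosomal protein genes in 43 of 80, genes of oxidative phosphorylation in 41 of 90 and the proteasome in 16 of 40. Solute carriers had one in 164 of 334 and zinc finger genes in 186 of 465, the strongest gained being Slc3a2 (74.5) and Zfp786 (96.7). In the early response and secretory list it was 9 of 26, with Igfbp7 (74.9), Atf3 (61.1) and Myc (46.5) gained.

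The CAR target list also holds the receptor genes Nr1i3, Nr1i2 and Rxra. Of its 25 genes, 3 had a Setd8-LKO promoter peak (Abcc4 with 17.2, Rxra with 16.9 and Por with 16.3) and 0 a WT one. Of the plasma protein genes 2 of 29 gained a peak, C3 (40.6) and Apoe (18.8), and 2 lost theirs, Itih1 (15.1) and Apob (10.5). Cytochrome P450 genes had one in 11 of 93, the strongest gained at Cyp1b1 (67.4), Cyp24a1 (49.3) and Cyp26a1 (31.0). Clustered histone genes had one in 16 of 71, keratin genes in 11 of 49, olfactory receptors in 9 of 1135 and vomeronasal receptors in 0 of 331. Among markers of liver cell types, 1 of 10 hepatocyte, 4 of 8 cholangiocyte, 3 of 8 stellate, 2 of 8 endothelial, 0 of 8 macrophage, 0 of 8 lymphocyte and 1 of 8 neutrophil genes had a Setd8-LKO promoter peak.

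**Figure D5:**
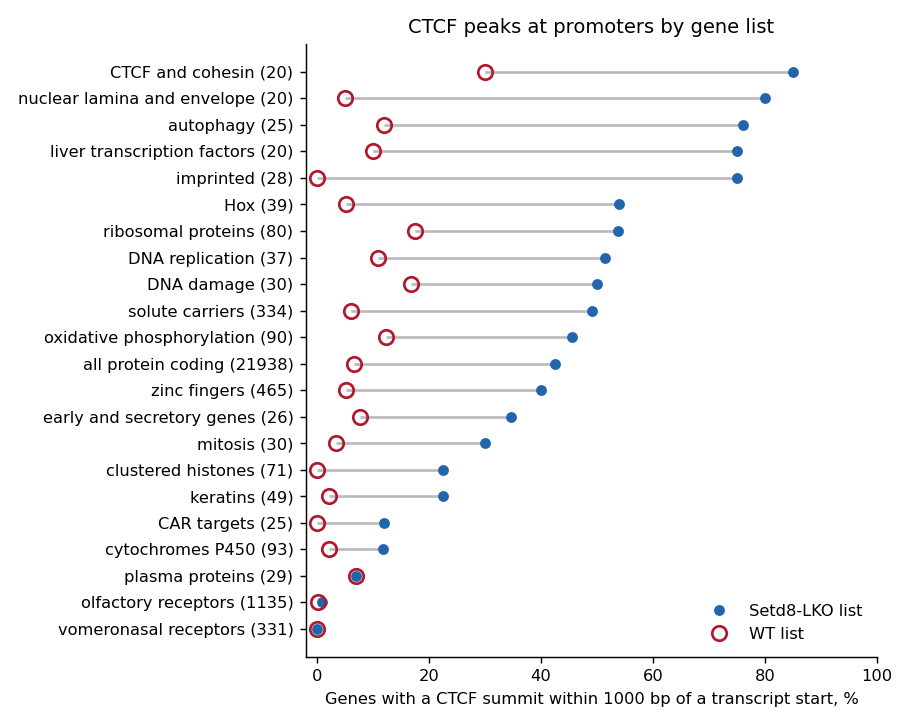
Share of the genes of each list (number of genes in brackets) with a CTCF summit within 1000 bp of a transcript start, with open circles for the WT list and filled circles for the Setd8-LKO list. All protein coding genes stand at 6.60% and 42.5%, CTCF and cohesin genes at 30% and 85%, and olfactory and vomeronasal receptor genes near 0 in both.

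RNA of genes with and without promoter peaks was read from RNA-seq of 5 untreated WT and 4 TCPOBOP-treated Setd8-LKO livers. Kmt5a was checked first, and its normalized counts were 563 to 761 (median 613) in WT and 1313, 1338, 1341 and 1465 in the libraries labelled Setd8-LKO, a log2 fold change of 1.08 (standard error 0.14, adjusted p = 3.04e-05, edgeR), which was 0.27 (adjusted p = 0.19) with size factors estimated by DESeq2 from the listed genes. Its level went against the label, and counts summed over all exons cannot show the deletion, so that the libraries are named by their label. The table lists only 3900 genes that the authors selected for a change in these libraries. The adjusted p-values given here test these genes again in the same libraries. Small values therefore follow from the selection and are no independent evidence. Of 3726 genes tested, 58.5% were higher and 39.5% lower in libraries labelled Setd8-LKO (called in edgeR at an adjusted p under 0.05 with a change of 1 or more on the log2 scale), and the groups did not overlap for 86.8%.

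Genes with a promoter peak only in the Setd8-LKO list were 835 higher and 458 lower of 1318 tested (63.4% and 34.7%), with a median log2 fold change of 1.25 against 1.16 over all genes tested. Genes with peaks in both lists were 154 higher and 79 lower of 237 (65% and 33.3%), those with a WT peak only 12 and 8 of 20, and those with neither 1173 and 922 of 2140 (54.8% and 43.1%). When the size factors were estimated by DESeq2 from the listed genes alone, the median log2 fold change of all genes fell to 0.30 and that of genes with a Setd8-LKO peak only to 0.39. The calls of these genes then turned to 337 higher and 475 lower of 1283. With TMM, another scaling estimated from the listed genes, they were 839 higher and 461 lower of 1331. The majority direction thus depended on which scaling was used.

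The libraries are of whole liver, in which fewer cells of a type and less RNA per cell cannot be told apart. Of 10 hepatocyte marker genes 6 were listed and all 6 were lower, with summed normalized counts of 1164600 to 1921870 in WT and 476378 to 685037 in libraries labelled Setd8-LKO. Of 8 cholangiocyte markers 6 were listed and all were higher (423 to 691 and 1634 to 7499), as were all 4 listed of 8 stellate cell markers (756 to 1725 and 2877 to 8730), both listed of 8 macrophage markers (112 to 332 and 587 to 863) and the 1 listed of 8 endothelial markers (89 to 198 and 196 to 330). Of 2 neutrophil markers listed 1 was higher. With the DESeq2 size factors all 6 hepatocyte markers were lower, 4 cholangiocyte, 3 stellate and 1 macrophage marker were higher, and the endothelial and neutrophil markers were not called. Over all genes tested, 58.5% were higher and 39.5% lower with the authors' factors. With the DESeq2 size factors these shares were 25.3% and 42.4%. The part of cell composition in the RNA and in the peak lists was not tested.

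Among genes with a promoter peak only in the Setd8-LKO list, the largest rises had next to no WT counts. Lif, a cytokine of the interleukin 6 family, had normalized counts of 0 in all 5 WT libraries and 14, 46, 53 and 70 in libraries labelled Setd8-LKO. Pkp1, a desmosome protein, had 0, 0, 0, 1 and 1 in WT and 89, 141, 188 and 222 in Setd8-LKO. Cacna1b, a calcium channel subunit, had 0 to 3 and 45 to 132, and Meltf, an iron-binding surface protein, 0 to 3 and 24 to 99. Mybl1, a transcription factor of the Myb family, had 3 to 16 in WT and 540, 700, 1017 and 1074 in Setd8-LKO, with a log2 fold change of 6.44 (standard error 0.46, adjusted p = 9.09e-07, edgeR). Genes with overlapping groups could not be named by the rule.

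The largest falls in that group were Trhde (28 to 74 in WT, 2 to 3 in Setd8-LKO), Nox4, an NADPH oxidase (396 to 949 and 26 to 38), Cspg5 (23 to 113 and 2 to 8), the antisense gene Gm32569 (39 to 110 and 2 to 8) and Slc30a10, a manganese exporter (729 to 971 and 24 to 100). The log2 fold change of Nox4 was -4.26 (standard error 0.31, adjusted p = 1.01e-06, edgeR) and that of Slc30a10 was -4.03 (0.40, 5.82e-06). The reads of Gm32569 may be shared with the gene on the opposite strand, since the counting is not stated to use strand.

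With promoter peaks in both lists, Myom3 rose from 4 to 35 normalized counts in WT to 716 to 937 (log2 fold change 5.54), Sapcd2 from 0 to 3 to 36 to 45, and Kifc1, a mitotic kinesin, from 5 to 17 to 217 to 333 (4.35). Pitx3 fell (33 to 186 in WT, 1 to 5 in Setd8-LKO), as did Aox3, an aldehyde oxidase (10307 to 21686 and 833 to 1440), and the pseudogene Mup-ps17 (9672 to 34372 and 110 to 2557), whose reads cannot be separated with confidence from those of its near-identical relatives. With a WT peak only, Mcm5 rose from 37 to 87 to 251 to 554 (2.82), Adcy10 from 0 to 7 to 23 to 53 and Thbs1 from 8 to 35 to 67 to 204, and Aspg fell (4580 to 5007 and 369 to 1014, -2.83), as did Slco2b1 (2825 to 3345 and 607 to 766, -2.21) and Psen2 (2602 to 3858 and 936 to 1052, -1.75). Adjusted p in edgeR was at most 0.000872 for each of these 12 genes, which had been selected for a change in the same libraries.

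At the fixed loci, Cyp2b10 had 25 to 106 normalized counts in WT and 31592 to 66038 in libraries labelled Setd8-LKO. H19 had 1 to 47 in WT and 74, 310, 4547 and 5052 in Setd8-LKO. Myc had 41 to 297 and 455 to 691, a log2 fold change of 2.55 (standard error 0.58, adjusted p = 0.00149, edgeR). Alb fell from 630727 to 1230910 to 302416 to 437673, and Igf1 from 6388 to 9857 to 2648 to 3300. Of the gene lists, 29 of 30 mitosis genes were listed, 28 of them higher. Of the 25 genes of the CAR target list, 17 were listed, all higher. Of 20 CTCF and cohesin genes 2 were listed (Cdca5 and Esco2, both higher), and of 20 lamina genes 2 (Lmna and Tpr, both higher). Of all genes tested, 58.5% were higher. Under the DESeq2 factors, 26 mitosis and 12 CAR target genes were still called higher, and neither lamina gene was called. With these factors 25.3% of all 3603 genes tested were called higher and 42.4% lower.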

How the data were processed

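Members and lists were chosen with earlier results of these data known. Per the labels and methods, ChIP-seq reads were trimmed with Trimmomatic 0.39, aligned to mm10 with HISAT2, cleared of duplicates, low mapping quality and blacklisted regions, reduced in proportion to the smallest sample and called with MACS2 2.2.7.1. How replicates entered the 1 list per group is not given in the sources used here, and depth is not in the lists. The authors deposited, per peak, a fold enrichment (a ratio over the background that MACS2 estimated) and −log10 of the p-value, and SICER island scores. The authors' RNA table of selected genes holds raw counts and normalized counts (a score, raw count times 1 factor per library). The authors' fold changes and p-values, and another 54 columns of transformed counts, were not used.

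Peaks were matched by 1 shared bp in Python 3.11.15 (numpy 2.4.6, pandas 2.3.3, scipy 1.17.1), with 95% Clopper-Pearson intervals and order-statistic intervals of medians. All peaks on named chromosomes lay within GRCm38 lengths. Bases were read with pysam 0.24.0 and genes from GENCODE M21. Library columns summed to 5734060 to 12780900 raw counts over listed genes, which is not depth. The count test was that of edgeR 4.0.16 under R 4.3.3 (quasi-likelihood, minimum count 10, authors' factors, Benjamini-Hochberg over listed genes), and DESeq2 1.42.0 was an alternative. Counts were simulated for 3726 genes with 200 changed, up and down alike, and with the library factors taken as known. Of changes of 1.5 and of 2 (log2), 98 and 95 passed the filter, and 89.8% and 92.6% of these came back. Most listed genes were called in the data, so the simulation does not check the scaling. Same-numbered RNA libraries did not deviate together (correlations -0.15 to 0.068), so no pairing was used. The methods call the RNA libraries biological replicates. Named peaks are the strongest 5 per class, the 5 longest gained and fixed loci. Named genes are up to 3 per list with the strongest gained promoter peak and, for RNA, the 5 (or 3) largest rises and falls whose groups did not overlap. Others, such as the strongest kept promoter peaks, were named after their values were seen. The RNA of the lymphocyte markers is not reported here.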

Additional observations from a re-analysis of the deposited data

Results flagged for a closer look

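In 55 groups of 4 or 5 RNA libraries, Dixon's test set 3 single libraries apart from the rest of their group, where chance gives about 1 in 20 groups. Cspg5 had 8 normalized counts in Setd8-LKO library 3 against 3 in the next highest. Aox3 had 1440 in Setd8-LKO library 2 against 928. Myc had 297 in WT library 3 against 52, still below the lowest library labelled Setd8-LKO at 455.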

How the results depend on the processing

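No paired analysis was possible for the CTCF lists because each group has 1 list, and no library could be left out of them. Without the named RNA genes and the left-out libraries, 58 of 108 alternative values stayed within the counting interval or 1.5 times. The cause of the shifts below was not tested. The share of WT peaks kept was 33.1% with reciprocal overlap of 50%, 55% with summits within 100 bp, 59.7% within 1000 bp and 46.4% with equal numbers of peaks. The gained share was 90.7%, 84.6%, 82.1% and 54.0% in the same order, and 82.7% at a -log10 p of at least 20. With equal numbers, median fold enrichment was 51.1 in kept Setd8-LKO and 29.7 in gained peaks, gained peaks measured 477 bp and Setd8-LKO summits lay 105152 bp apart. At a -log10 p of at least 20, gained peaks had medians of 13.0 and 314 bp, 58.6% lay at promoters, 15.8% held the consensus, 17.8% met Setd8-LKO ATAC peaks, and 32.7% of coding genes had a Setd8-LKO promoter peak only. Within 500 bp, 2500 bp and by protein coding starts, promoters held 51.3%, 67.9% and 55.3% of gained, 33.9%, 53.1% and 36.7% of kept Setd8-LKO and 5.44%, 23.5% and 6.38% of lost peaks. With 500 bp, 33.8% of coding genes had a Setd8-LKO peak only and 5.04% both. With no mismatch, up to 2 mismatches, within 50 bp and within 250 bp, the consensus was in 3.68%, 45.5%, 10.2% and 18.6% of gained and 22.3%, 88.3%, 52.8% and 65.3% of kept Setd8-LKO peaks, and with the first 3 in 29.6%, 95.3% and 69.0% of lost peaks. Setd8-LKO Smc3 met 71.3% of gained peaks by summit and 31.3% by reciprocal overlap, which gave 1.64% (Setd8-LKO) and 55.8% (WT) for lost peaks. By summit, gained peaks met H3K27ac in 53.2% and ATAC in 9.30%. Chosen after seeing the data, GC content within 250 bp gave 26.1% of WT peaks kept at 45 to 50% GC, summits within 100 bp 10.0% and equal numbers 4.22%, while 97.0 to 100% were kept at 60 to 65% GC.

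For RNA, DESeq2's size factors gave 337 higher genes with a Setd8-LKO peak only, 64 with both and 5 with WT only. Leaving out each library gave 773 to 843, 139 to 154 and 10 to 12 higher, and 428 to 459, 72 to 81 and 8 to 8 lower. With the replicate number as a block, though numbers did not pair the samples, 794 were higher and 424 lower with a Setd8-LKO peak only, 146 and 73 with both, and 11 and 8 with WT only. Alb was then no longer called (adjusted p = 0.051). With the run (A or B) that the authors' count columns name as a term, the first class had 810 and 414. Run B held WT libraries 1 and 2 and Setd8-LKO libraries 1, 2 and 3, and run A the others. Run was therefore not balanced between the groups. Among named genes, 418 of 420 alternative values kept their direction and call, the others being Alb under the block and Kmt5a under DESeq2's size factors.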
